A study of Bos taurus with 48 samples.

Results

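The LPHE-LPLE contrast in month 7 of gestation compared subcutaneous adipose tissue of 12 Norwegian Red heifers that had been reared on a low-protein diet. Members were chosen from the sample labels as the samples of the pregnant time point at the low protein level, with dietary energy high (LPHE, 6 heifers) or low (LPLE, 6 heifers), which gave 12 of the 48 samples of the series. The 4 rearing diets, LPHE, LPLE, HPHE and HPLE, were fed from 3 months of age until pregnancy was established at a target body weight of 400 kg. All heifers, those of both compared groups included, then had free access to the same low-energy feed from day 28 to 42 of gestation on, so that at biopsy none of the 12 heifers was still on its rearing diet. Each diet held 3 heifers of the high milk-yield (HMY) and 3 of the low clinical mastitis (LCM) genetic group, and the heifers were 20 to 24 months old at this biopsy. Because breeding was set by weight, low-energy heifers conceived at an older age than high-energy heifers. In the same month of gestation they were thus also older at biopsy, and ages of single heifers were not labelled. The same heifers had been biopsied at 12 months of age, while still on these diets, so the time between biopsies was longer in low-energy heifers. Rearing diet, age at conception, age at biopsy and this interval cannot be told apart in this contrast.

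Adipose tissue of ruminants is the main site of fatty acid synthesis, which starts largely from acetate and draws reducing power from the pentose phosphate pathway and from isocitrate. Acetyl-CoA carboxylase and fatty acid synthase build palmitate, and elongases, desaturases and acyltransferases turn it into stored triacylglycerol. In late gestation adipose tissue shifts from storing fat towards releasing it, and the genes of synthesis are known to respond to the energy supply.

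Between 28230549 and 48003078 reads per sample were counted on genes in these 12 samples, and the totals did not separate the diets (exact permutation test of log2 totals, 6 heifers against 6, p = 0.511). Of all reads that the counting tool classified, 52.8 to 61.2% fell on genes. The adipocyte markers CIDEC, a protein of the lipid droplet surface, and LEP, the hormone leptin, were present in every sample, at 1014 to 2006 and 327 to 730 CPM (reads of a gene scaled to library size after TMM normalization). Defining skeletal muscle transcripts were at or near 0, with a summed level of 7 markers of 1.43 to 3.58 CPM in LPHE and 1.38 to 3.97 CPM in LPLE heifers. The summed smooth muscle markers varied widely within both diets, from 197 to 1450 CPM in LPHE and from 179 to 1820 CPM in LPLE heifers. The sum of 6 Schwann cell markers, 143 to 289 and 144 to 436 CPM, included 100 to 282 and 102 to 273 CPM of S100B, which adipocytes also express, and so is no measure of Schwann cells alone. None of the 8 marker sums that could be formed separated the diets (exact permutation p from 0.0693 for KRT19, the single mammary epithelium marker, to 0.916). The sums of adipocytes, endothelium, fibroblasts with adipocyte progenitors, and skin epithelium rested on 2 genes each, and that of smooth muscle on 5. They are thus a limited check of cell composition. Markers of macrophages, T cells, B cells, neutrophils and red cells were not paired with an identifier in the tables used here and could not be checked.

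Of 13403 expressed genes, 141 (1.05%) were DEG between LPHE and LPLE in gestation at a false discovery rate (FDR) under 0.1. Expression was lower in LPHE heifers for 99 DEG (0.739% of the genes tested) and higher for 42 (0.313%). With library size in place of TMM the DEG were 60 higher and 58 lower, so the preponderance of lower genes depended on the scaling, whereas the sign of the named DEG below did not. The likelihood ratio test of edgeR gave these calls. The quasi-likelihood F test of edgeR called 0 genes, with a lowest FDR of 0.118 and 1792 genes at an unadjusted p under 0.05, against 1335 with the likelihood ratio test, while DESeq2 called 423 (125 higher and 298 lower), among them 135 of the 141. The count also turned on single heifers. It was 26 without heifer 10, 33 without heifer 16, 43 without heifer 8, 53 without heifer 24, 54 without heifer 14, 69 without heifer 12 and 92 without heifer 5, and it was 322 without heifer 18. All calls below are therefore calls of the likelihood ratio test. Of 42 DEG named here and refitted, 12 were called with any single heifer left out and under the other alternatives run for single genes, except the quasi-likelihood F test. Those alternatives were DESeq2, library size, no genetic group and the 12 samples of the contrast only. The 12 DEG were MVD, SLC25A1, ACLY, BDH1, PCYT2, LSS, AACS, CKB, PKD2L1, KLF11, ENSBTAG00000027409 and ENSBTAG00000043546 (log2 fold change -0.67 ± 0.16, FDR = 0.0124). The other 30 lost the call without at least 1 heifer, and those with an FDR above 0.05 without 4 to 9 of the 12 in turn. In tissue made of many cells, fewer cells of a type and less RNA per cell cannot be told apart.

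Symbols were paired with Ensembl identifiers only in the study's tables of genes that responded to diet at 12 months. Of the 996 genes with a symbol that were tested here, 48 were lower (4.82%) and 5 were higher in LPHE heifers, and their median log2 fold change was -0.16 against 0.01 over all genes tested. Counts within the gene lists below should be read against the 4.82% of all named genes as well as the 0.739% of all genes. Counts of negative values should be read against 70% of all named genes and 47.3% of all genes. Among genes that were higher in LPHE heifers at 12 months, 84.9% had a negative value in gestation and 7.56% were called lower. The other 51 lower and 37 higher DEG carry an identifier only.

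Genes of fatty acid synthesis were lower in LPHE than in LPLE heifers. Of 16 list members tested, 7 fell (43.8%), none rose and all 16 had a negative log2 fold change, with a median of -1.07. FASN, fatty acid synthase, ranged from 714 to 6950 CPM in LPHE heifers (median 2442) and from 2766 to 10864 CPM in LPLE heifers (median 7381). The 4 lowest of the 12 values were 3 LPHE heifers and 1 LPLE heifer, and the ranges overlapped. The difference was a log2 fold change of -1.47 ± 0.41 (SE, n = 6 per diet, FDR = 0.0606). ACACA, the acetyl-CoA carboxylase that makes malonyl-CoA, was between 331 and 1662 CPM in LPHE (median 539) and between 764 and 2343 CPM in LPLE heifers (median 1404), with a log2 fold change of -1.18 ± 0.34 (FDR = 0.0771). Neither FASN nor ACACA passed when heifer 5, 8, 10, 12, 14, 16 or 24 was left out, with FDR of up to 0.276 and 0.288, while both kept a negative value in all 12 such fits.

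Genes that supply cytosolic acetyl-CoA were among the lower DEG. SLC25A1, the carrier that exports citrate from mitochondria, had the second smallest p-value of all named genes. Its level was 59.7 to 235 CPM in LPHE (median 133) and 189 to 652 CPM in LPLE heifers (median 413), and only 2 LPHE heifers reached into the LPLE range. The log2 fold change was -1.64 ± 0.32 (FDR = 0.00149). ACLY, which cleaves citrate to acetyl-CoA, was 107 to 186 CPM in LPHE (median 128) and 142 to 538 CPM in LPLE heifers (median 393), and its log2 fold change was -1.36 ± 0.28 (FDR = 0.00271). ACSS2, which activates acetate, the main carbon source of fat synthesis in ruminants, fell by 1.32 ± 0.38 on the log2 scale (FDR = 0.0771). MID1IP1, a regulator of acetyl-CoA carboxylase, fell by 1.29 ± 0.34 (FDR = 0.0467). SCD and ELOVL6, a desaturase and an elongase, had log2 fold changes of -1.29 ± 0.44 (FDR = 0.192) and -0.94 ± 0.33 (FDR = 0.227) and did not pass the threshold. FADS2, a desaturase of polyunsaturated fatty acids, had the value nearest to 0 of the list, at -0.30 ± 0.38.

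Genes of glucose use were also among the lower DEG. TKT, a transketolase of the pentose phosphate pathway, which supplies NADPH for this synthesis, fell by 0.93 ± 0.26 (FDR = 0.0546), and GPI, which links glucose 6-phosphate to glycolysis, fell by 0.62 ± 0.17 (FDR = 0.0606). They were among the 3 DEG of 11 tested genes of glycolysis and the pentose phosphate pathway, all of which had a negative log2 fold change (median -0.54, with PGK1 at -0.25 ± 0.15 closest to 0).

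Sterol synthesis had the lowest median of the lists with more than 2 tested members. Of 6 genes tested 5 fell and the median was -1.21. MVD, the decarboxylase of the mevalonate pathway, had the smallest p-value of all 13403 genes. It ranged from 12 to 34.5 CPM in LPHE heifers (median 22.2) and from 30.7 to 114 CPM in LPLE heifers (median 45), and 1 LPHE heifer lay within the LPLE range. Its log2 fold change was -1.38 ± 0.26 (FDR = 0.00091). IDI1, the isomerase next to it, fell by 1.49 ± 0.34 (FDR = 0.00875), LSS, which closes the sterol ring system, fell by 1.36 ± 0.29 (FDR = 0.00367), and NSDHL, a later step, fell by 0.73 ± 0.21 (FDR = 0.0678). SC5D, the sterol desaturase, had -0.43 ± 0.16 and did not pass (FDR = 0.272).

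**Figure D1:**
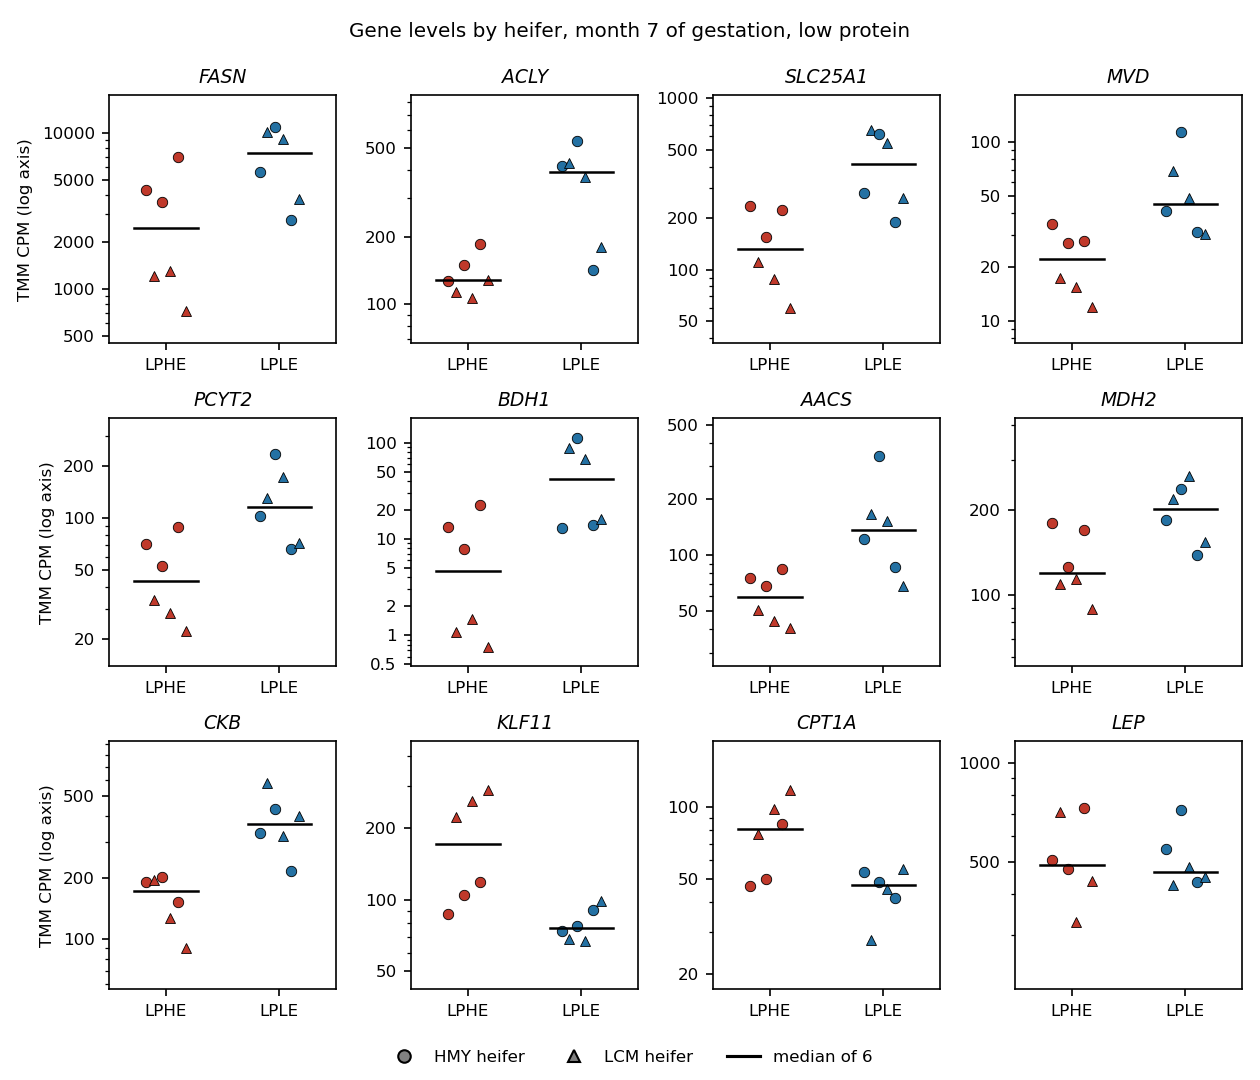
TMM-normalized CPM (log axis) of 12 genes in each of the 6 LPHE and 6 LPLE heifers in month 7 of gestation, with circles for HMY and triangles for LCM heifers and a bar at the median of the 6. The diets do not overlap for CKB (90.9 to 201 CPM against 217 to 582 CPM), overlap in part for the other genes, and overlap fully for LEP.

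Among genes of triacylglycerol synthesis and the lipid droplet, 1 of 6 fell. PLIN5, a perilipin of droplets close to mitochondria, was between 0.266 and 2.32 CPM in LPHE (median 0.754) and between 1.73 and 8.08 CPM in LPLE heifers (median 3.17), and its log2 fold change was -2.16 ± 0.50 (FDR = 0.0102). These are low levels in both diets. AGPAT2 and DGAT2, acyltransferases of triacylglycerol synthesis, had -1.10 ± 0.34 (FDR = 0.111) and -0.95 ± 0.31 (FDR = 0.135). CIDEC had -0.11 ± 0.19 (FDR = 0.931), and SLC27A6, a fatty acid transporter, had the only positive value of the list (0.31 ± 0.41). PCYT2, which makes CDP-ethanolamine for membrane phospholipids, fell by 1.49 ± 0.31 (FDR = 0.00271), from a median of 117 CPM in LPLE to 43.4 CPM in LPHE heifers.

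Ketone body enzymes held the named DEG with the most negative log2 fold change. BDH1, the mitochondrial hydroxybutyrate dehydrogenase, had levels of 0.764, 1.08, 1.48, 7.93, 13.5 and 22.3 CPM in the 6 LPHE heifers and of 13.1, 14.1, 16.1, 68, 89.1 and 112 CPM in the 6 LPLE heifers. LPHE heifers thus spread over a wide range that only in its upper part met that of LPLE heifers. The log2 fold change was -3.48 ± 0.73 (FDR = 0.00271). The LPHE values of BDH1 split by genetic group, 0.764 to 1.48 CPM in the 3 LCM and 7.93 to 22.3 CPM in the 3 HMY heifers. In LPLE heifers the genetic groups overlapped (16.1 to 89.1 CPM and 13.1 to 112 CPM). AACS, which activates acetoacetate in the cytosol for lipid synthesis, fell by 1.38 ± 0.30 (FDR = 0.00458), and SLC16A7, a carrier of monocarboxylates, fell by 0.92 ± 0.26 (FDR = 0.0606). With these, 3 of 10 genes of propionate and ketone body use fell (median -0.40).

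Genes of mitochondrial energy metabolism had smaller differences that nearly all pointed the same way. All 19 tested genes of the citric acid cycle had negative log2 fold changes, from -0.68 to -0.16 with a median of -0.36, and 4 fell. Among these were MDH2, malate dehydrogenase (-0.62 ± 0.17, FDR = 0.0593), OGDH, a subunit of the oxoglutarate dehydrogenase complex (-0.56 ± 0.16, FDR = 0.0743), and SDHA, the flavoprotein of succinate dehydrogenase (-0.56 ± 0.17, FDR = 0.0807). Of 56 genes of the electron transport chain and ATP synthase 55 had negative values (median -0.34), and 6 fell. The exception was ATP5S with 0.03 ± 0.16. All tested genes of both lists had positive values at 12 months. Of all genes higher in LPHE heifers at 12 months, 84.9% were negative in gestation and 7.56% were called lower. The called shares here were 21.1% for the citric acid cycle and 10.7% for electron transport, the latter near that share. The 6 electron transport genes that fell were NDUFA10 and NDUFV1 of complex I, SDHA, UQCRFS1 and CYC1 of complex III, and CYCS, cytochrome c. CYCS is counted at 2 identifiers in the tables, of which 1 (ENSBTAG00000023823) was called, and reads may be split between near-identical copies. COX1, a cytochrome oxidase subunit encoded in the mitochondrial genome and outside this list, ranged from 12966 to 17629 CPM in LPHE (median 14561) and from 16045 to 34654 CPM in LPLE heifers (median 26528), with a log2 fold change of -0.75 ± 0.21 (FDR = 0.051). SLC25A4, the carrier that exchanges ADP for ATP across the inner membrane, fell by 1.22 ± 0.32 (FDR = 0.0347).

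CKB, brain-type creatine kinase, was the named DEG in which the diets did not overlap. Its levels were 90.9, 127, 152, 191, 194 and 201 CPM in LPHE and 217, 320, 332, 399, 433 and 582 CPM in LPLE heifers, and its log2 fold change was -1.27 ± 0.30 (FDR = 0.0116). The exact permutation test gives p = 0.00216, the smallest that 6 against 6 heifers allow, for any gene without overlap. That p therefore adds nothing to the lack of overlap. Over all genes, 29 (0.216%) had every LPHE heifer below every LPLE heifer and 61 (0.455%) had every LPHE heifer above. Of the 99 lower DEG 5 did not overlap, and of the 42 higher DEG 15 did not. Most of the higher DEG have no symbol here.

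Of the beta-oxidation genes 1 was called. CPT1A, which admits long-chain fatty acids to mitochondria, was higher in LPHE heifers. Its level ranged from 46.7 to 117 CPM in LPHE (median 80.9) and from 27.6 to 54.9 CPM in LPLE heifers (median 46.9), with 4 LPHE heifers above the LPLE range, and the log2 fold change was 0.78 ± 0.21 (FDR = 0.0506). The other 8 of 9 tested genes of the pathway had negative values (88.9%), near the 84.9% of genes higher in LPHE heifers at 12 months. None of these 8 passed, among them ECHS1, enoyl-CoA hydratase (-0.67 ± 0.22, FDR = 0.135). PDK4, the kinase that shuts off pyruvate dehydrogenase, was 98.2 to 767 CPM in LPHE and 96.7 to 168 CPM in LPLE heifers and did not pass the threshold (log2 fold change 1.14 ± 0.36, FDR = 0.118). It was the highest of 6 tested genes of insulin and growth factor action, none of which was called (median 0.20, with IGFBP6 lowest at -0.17 ± 0.31).

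KLF11, a zinc-finger transcription factor, had the smallest p-value of the named genes that were higher in LPHE heifers. Levels were 86.8, 105, 118, 223, 260 and 289 CPM in LPHE and 67.4, 68.7, 73.7, 77.8, 90.3 and 98.5 CPM in LPLE heifers, so that 5 LPHE heifers lay above the LPLE range. The log2 fold change was 1.13 ± 0.23 (FDR = 0.00271). RNASE1, a secreted ribonuclease, rose by 1.24 ± 0.31 (FDR = 0.0247), from a median of 23.6 CPM in LPLE to 68.8 CPM in LPHE heifers, and GPNMB, a membrane glycoprotein known from macrophages among other cells, rose by 0.70 ± 0.19 (FDR = 0.0481). The macrophage markers of the lists had no identifier, so the part of macrophages in the GPNMB difference was not tested. LOC616942 is annotated as a class I histocompatibility gene, a family whose members share reads, and its log2 fold change of 1.57 ± 0.47 (FDR = 0.0899) is uncertain for that reason. The higher gene with the smallest p-value was ENSBTAG00000027409, which has no symbol in the tables. Its 6 LPHE values, 57.2 to 84.8 CPM, all exceeded the 6 LPLE values, 19.7 to 39.8 CPM, with a log2 fold change of 1.46 ± 0.28 (FDR = 0.00091).

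Other lower DEG with a symbol came from several functions. In the list of amino acid breakdown 1 of 23 genes fell, BCAT2, the mitochondrial branched-chain aminotransferase (-0.64 ± 0.19, FDR = 0.0779). HPD, which degrades tyrosine, had the lowest value of that list but did not pass (-2.09 ± 0.66, FDR = 0.126). Among 19 antioxidant and detoxification genes GSTT3 and GSTT1, glutathione S-transferases of the theta class, fell by 2.33 ± 0.57 (FDR = 0.0177) and 0.84 ± 0.26 (FDR = 0.0944), whereas CAT, catalase, had 0.05 ± 0.16. QPRT, an enzyme of NAD synthesis from tryptophan, fell by 0.91 ± 0.26 (FDR = 0.0628) as 1 of 5 genes of that route, in which KYNU had the highest value (0.06 ± 0.32). NFIL3, a transcription factor under circadian control, fell by 0.69 ± 0.19 (FDR = 0.0506), while DBP of the same list had 0.21 ± 0.22. SOST, the Wnt inhibitor sclerostin, fell by 2.92 ± 0.73 (FDR = 0.024), PKD2L1, a cation channel, by 1.84 ± 0.39 (FDR = 0.00271), and CYP17A1, a steroid hydroxylase, by 2.47 ± 0.67 (FDR = 0.0506), each at medians under 25 CPM in both diets.

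Several genes that were DEG between the same diets at 12 months were not DEG in gestation, the secreted factors LEP and S100B among them. LEP was 327 to 730 CPM in LPHE (median 491) and 425 to 722 CPM in LPLE heifers (median 466), and its log2 fold change was 0.06 ± 0.29 (FDR = 0.98). S100B, a calcium-binding protein that adipocytes secrete, was 100 to 282 CPM and 102 to 273 CPM (-0.13 ± 0.26, FDR = 0.94). C19orf80, also known as ANGPTL8, a feeding-induced secreted factor of triacylglycerol metabolism, was 1.62 to 112 CPM in LPHE (median 24.1) and 25.4 to 220 CPM in LPLE heifers (median 76.6). Its log2 fold change of -2.05 ± 0.78 did not pass the threshold (FDR = 0.275). In LPHE it was 1.62 to 8.29 CPM in the 3 LCM and 39.9 to 112 CPM in the 3 HMY heifers. In LPLE the genetic groups overlapped (50.3 to 220 CPM and 25.4 to 159 CPM). At high protein the log2 fold change of C19orf80 was -3.40 ± 0.75 (FDR = 0.00331). The test of the difference between low and high protein did not call it. NNAT, an imprinted proteolipid, had -0.49 ± 0.34, SERPINA5, a protease inhibitor, -0.46 ± 0.25, and CRYAB, a small heat shock protein, -0.70 ± 0.30, and all had an FDR of at least 0.37.

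No gene was called among the lists of extracellular matrix (16 tested, median 0.04, from LOXL1 at -0.60 ± 0.24 to ADAMTS5 at 0.44 ± 0.36), inflammation (6 tested, median 0.57), interferon response (3 tested, median 0.64) and heat shock (5 tested, median -0.32). Without LPHE heifer 16 the medians of the inflammation and interferon lists were -0.0065 and 0.12. XYLT1, which starts proteoglycan chains, had 0.10 ± 0.32. Of the inflammation list CXCL10 had the highest value, 1.01 ± 0.64, and CCL21 the lowest, -0.67 ± 0.65. CCL5 had 0.90 ± 0.32 (FDR = 0.227). Among receptors of gestation hormones only GPER1, an oestrogen receptor (-1.20 ± 0.39, FDR = 0.143), and PRLR, the prolactin receptor (0.23 ± 0.89, FDR = 0.975), had an identifier and were tested.

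**Figure D2:**
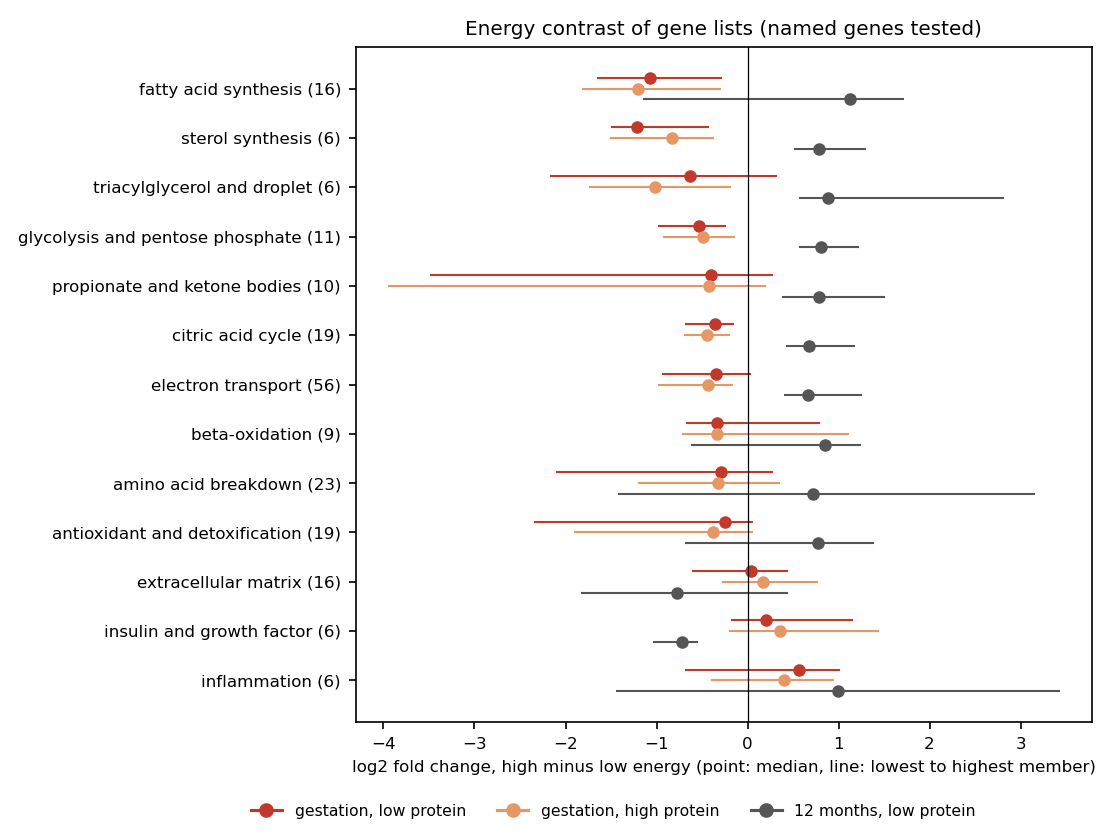
Median log2 fold change (point) and lowest to highest member (line) of 13 gene lists in the high-energy minus low-energy contrast, for low protein in gestation, high protein in gestation and low protein at 12 months, with the number of genes tested in brackets. Fatty acid synthesis has medians of -1.07 and -1.21 in gestation and 1.12 at 12 months.

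Most genes that were higher in LPHE heifers at 12 months had the opposite sign in gestation, whereas genes lower at 12 months were close to the share of all genes. At 12 months 593 genes were higher (4.45% of 13339 tested) and 351 lower (2.63%) in LPHE heifers. Of the 582 higher ones that were tested in gestation, 494 (84.9%) had a negative log2 fold change in gestation, against 47.3% of all genes, 44 (7.56%) were called lower and 2 were called higher. Of the 340 lower ones that were tested, 142 (41.8%) had a negative value, 2 were called higher (0.588%) and none was called lower. Of these 340 genes 61.5% were negative within HMY heifers, against 49.7% of all genes, and 20.6% within LCM heifers, against 44.9%. Seen from gestation, 90 of the 98 lower DEG tested at 12 months had a positive log2 fold change there, and 27 of the 40 higher DEG had a negative one, where 52.9% of all 13135 genes tested at both times were negative at 12 months. Both contrasts came from the same 12 heifers but from separate samples.

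**Figure D3:**
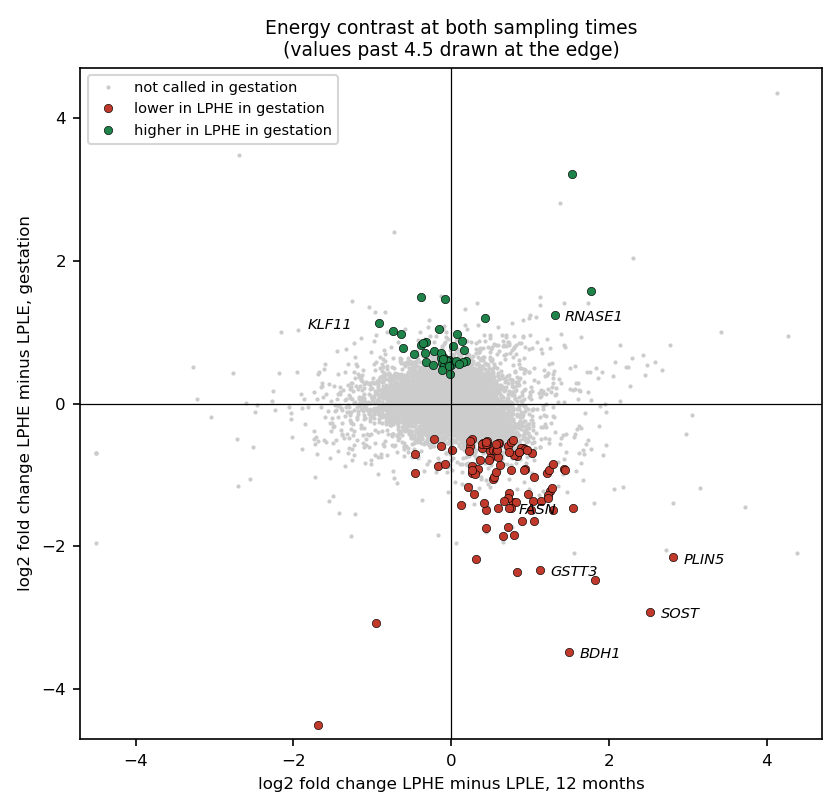
Log2 fold change of LPHE minus LPLE for each gene at 12 months (x axis) and in gestation (y axis), with the DEG of gestation coloured. Most lower DEG of gestation lie to the right of 0, as BDH1, PLIN5 and SOST do, while RNASE1 was higher in LPHE heifers at both times.

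The difference between both energy contrasts was tested directly in a model of all 48 samples. Of 13718 genes tested, 927 (6.76%) had a more negative energy contrast in gestation than at 12 months and 340 (2.48%) a more positive one. With library size in place of TMM the split was 628 more negative and 940 more positive. With the heifer as a block, since the same animals were sampled both times, 2249 genes passed (1372 more negative and 877 more positive), among them 1250 of the 1267. Among the 10 smallest p-values were those of KLF11, PLIN5, SLC25A1, QPRT, PCYT2, LSS, GSTT1, IDI1 and PRDX1. Of the 99 lower DEG of gestation 89 also differed between times, as did 20 of the 42 higher DEG. The gestation contrast that chose these DEG is part of the tested difference, so both shares were partly set by that choice. The count was 741 without heifer 10, 817 without heifer 24, 819 without heifer 16 and 839 without heifer 5. For genes with a symbol the size of this difference is partly set by their choice, since the tables list genes that responded at 12 months.

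For several lower DEG the larger change over time was in LPHE heifers. The time between biopsies was shorter in LPHE than in LPLE heifers, so the changes below span unequal intervals. SLC25A1 was 818 ± 172 CPM (SD, n = 6) in LPHE and 389 ± 103 CPM in LPLE heifers at 12 months, and 141 ± 69.5 CPM and 408 ± 192 CPM in gestation, in the scaling of all 48 samples. From 12 months to gestation its fitted log2 change was -2.58 ± 0.32 in LPHE heifers and 0.09 ± 0.30 in LPLE heifers. The changes of FASN were -2.08 ± 0.37 and -0.04 ± 0.35. The difference between times was -2.67 ± 0.43 for SLC25A1 (FDR = 2.28e-06) and -2.04 ± 0.50 for FASN (FDR = 0.00283).

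Other genes had different changes within each diet. KLF11 changed by 1.29 ± 0.22 in LPHE and by -0.81 ± 0.22 in LPLE heifers, which gave a difference of 2.10 ± 0.31 (FDR = 1.56e-07). CPT1A did likewise, with 0.90 ± 0.20 and -0.51 ± 0.19. LEP changed by -0.02 ± 0.36 in LPHE heifers and by 1.51 ± 0.37 in LPLE heifers, from 175 ± 79.6 CPM to 492 ± 107 CPM (difference between times -1.53 ± 0.51, FDR = 0.048). S100B changed by -1.35 ± 0.26 in LPHE and by 0.48 ± 0.26 in LPLE heifers. RNASE1 and LOC616942 were higher in LPHE heifers at both times, with differences between times of -0.08 ± 0.48 and -0.08 ± 0.70 that did not pass.

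Heifer by heifer, the mean log2 level of the 16 fatty acid synthesis genes fell from 12 months to gestation in all 6 LPHE heifers, by 1.13 to 2.57 (median change -1.84), whereas in LPLE heifers it fell in 3 and rose in 3 (-0.50 to 0.89). The same split, 6 of 6 LPHE heifers against a mixture in LPLE, was seen for the lists of sterol synthesis, citric acid cycle and electron transport. Here too the time between biopsies was longer in LPLE heifers. Extracellular matrix genes took the other course and rose in 5 of 6 LPHE heifers and fell in 5 of 6 LPLE heifers. As these members had responded to energy at 12 months, the gap between the diets at that age, with matrix genes lower and the other lists higher in LPHE heifers, was set by their choice.

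**Figure D4:**
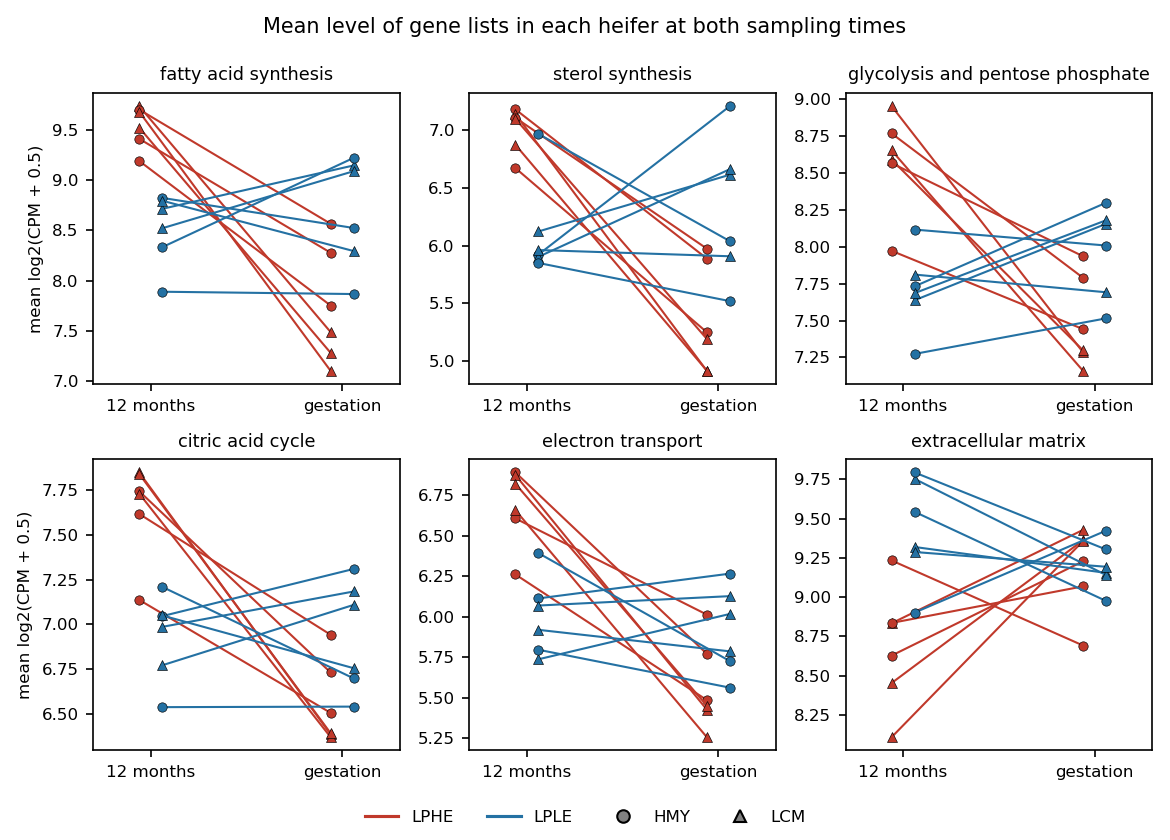
Mean log2(CPM + 0.5) of 6 gene lists in each heifer at 12 months and in gestation, red for LPHE and blue for LPLE, with circles for HMY and triangles for LCM heifers. All 6 LPHE lines fall for fatty acid synthesis, sterol synthesis, citric acid cycle and electron transport, while LPLE lines go both ways.

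At high protein the energy contrast of gestation was read in the other 12 heifers. Between HPHE and HPLE heifers in gestation 105 genes were lower (0.783%) and 22 higher (0.164%), and 46 of the 99 genes lower in LPHE heifers were called lower there as well. Of these 99 genes 98 had a negative log2 fold change at high protein, and all 42 higher ones had a positive value. Of all 13403 genes, 6397 (47.7%) had a negative value at high protein and 7006 a positive one. BDH1 had -3.94 ± 0.71 (FDR = 0.000195), FASN -1.81 ± 0.40 (FDR = 0.00416) and KLF11 1.09 ± 0.23 (FDR = 0.00221) at high protein. The medians of fatty acid synthesis and of electron transport genes were -1.21 and -0.43. The test of the difference between low and high protein called 1 gene (0.00746%), ENSBTAG00000045659, with 107 genes at an unadjusted p under 0.05, and the quasi-likelihood F test called 0 with 113. That gene had 0 to 0.674 CPM in LPHE and 0 to 0.042 CPM in LPLE heifers and was above 1 CPM only in 3 of 6 HPLE heifers, so its difference rested on heifers outside the low-protein contrast, and it was lost without each of these 3 heifers (heifers 7, 9 and 13).

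Within LPHE the genetic groups were set side by side after the values were seen. Tested directly, LCM and HMY heifers of LPHE differed in 13 genes (0.097%), 4 higher and 9 lower in LCM, and those of LPLE in 3 (0.0224%). FASN was 714 to 1303 CPM in the 3 LCM heifers and 3580 to 6950 CPM in the 3 HMY heifers, while in LPLE heifers the genetic groups overlapped (3753 to 10163 CPM and 2766 to 10864 CPM). KLF11 was 223 to 289 CPM in LCM and 86.8 to 118 CPM in HMY heifers of LPHE. For 47 of the 99 lower DEG all 3 LCM heifers of LPHE were below all 3 HMY heifers, against 781 of 13403 genes, and for none of the 99 were they above. For 6 of the 42 higher DEG all 3 LCM heifers were above all 3 HMY heifers, against 726 of 13403 genes, and for 1 they were below. The DEG were called from these same LPHE values, so their shares were partly set by that choice and are no test of the genetic groups. Fitted within LCM heifers, LPHE and LPLE differed in 151 genes (1.13%), 132 of them lower, and within HMY heifers in 2 (0.0149%), against 8 and 0 by the quasi-likelihood F test, which had 686 genes at an unadjusted p under 0.05 in HMY. The difference between genetic groups was itself not shown. The likelihood ratio test called 0 genes (lowest FDR = 0.118, 270 at an unadjusted p under 0.05), the quasi-likelihood F test 0 (279) and DESeq2 2. The median of the fatty acid synthesis genes was -1.51 in LCM and -0.38 in HMY heifers.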

How the data were processed

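RNA of subcutaneous adipose biopsies was sequenced in 48 samples of 24 heifers, of which the 12 low-protein samples of gestation are described. Per the labels and the study's methods, the authors trimmed reads with cutadapt 1.3, aligned them to the bovine genome UMD3.1 with TopHat2 2.0.12, handled alignments with SAMtools 1.19 and used HTSeq to count the reads on each Ensembl gene. The deposited values are raw counts, 1 column per sample. Summary rows of the counting tool, which name no gene, were left out of library sizes and tests. Between 38.8 and 47.2% of classified reads were in them in these 12 samples.

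Groups, heifer numbers and genetic groups were taken from the sample labels. Counts were TMM-normalized in edgeR 4.0.16 (R 4.3.3), the genes tested reached 2 CPM in 3 or more of the fitted samples, and trended and tagwise dispersions were estimated over the 24 samples of gestation with genetic group as covariate, after the study's methods. Contrasts were tested by likelihood ratio with Benjamini-Hochberg adjustment at an FDR of 0.1, and each standard error was back-calculated from the fold change (log2) and the root of the likelihood ratio statistic. The time difference used all 48 samples. Marker sums and single genes were compared by two-sided exact permutation of log2(CPM + 0.5). The same heifers were sampled at both times, so heifer numbers pair the samples. Correlations of the deviations of 24 such pairs ran from -0.056 to 0.581 (median 0.304). Replicates were separate heifers, and over 30 pairs within diets the chi-square statistic of their counts was at least 64 per degree of freedom.

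Genes named were, by rule, the 15 higher and 15 lower with the smallest p, the extremes and smallest p of each list, genes the study names, and the 10 smallest p of the time difference. Unnamed identifiers were limited, and further DEG with a symbol were added after their values were seen. Members and lists were chosen with earlier results of these data known. Alternatives were the quasi-likelihood F test, DESeq2 1.42.0, other scalings and filters, other sets of samples, no genetic group, heifer blocks and each heifer left out. Other dispersions and the fits by genetic group were added after seeing the data. Some items that the rule named are not reported here. Scripts were tested on simulated data. P-values rest on the spread between heifers.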

Additional observations from a re-analysis of the deposited data

Results flagged for a closer look

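The energy contrast at low protein (LPHE minus LPLE, log2 scale) differed between gestation and 12 months in 1267 genes by the likelihood ratio test of the difference itself. Among genes of lipid synthesis that difference was -2.04 for FASN, -2.34 for ACACA, -2.67 for SLC25A1, -2.40 for LSS, -2.78 for IDI1 and -2.50 for PCYT2. PLIN5 had -5.00, C19orf80 -4.36 and BDH1 -4.35, the most negative values among these genes. QPRT, GSTT1 and PRDX1 had -2.34, -2.13 and -1.21, and the secreted factors LEP and S100B had -1.53 and -1.82. More positive in gestation were KLF11 with 2.10, PDK4 with 2.10 and CPT1A with 1.41. Most of these genes have a symbol here because they responded to diet at 12 months, so the sizes are partly set by that choice.

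ENSBTAG00000045659 differed between the energy contrasts at low and at high protein, by 11.66 on the log2 scale. The value rested on 3 HPLE heifers with 2.35, 5.23 and 38.4 CPM.

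A single far value was looked for in 80 sets of 6 heifers, which covered only part of the genes described, together with library measures. Of these sets 0 held one, where chance gives about 1 in 20. The other genes described were not checked.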

How the results depend on the processing

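Of the 141 DEG of LPHE-LPLE in gestation, 58 passed an FDR of 0.05. The count was 0 with the quasi-likelihood F test, 423 with DESeq2, 71 with no genetic group, 212 with the 12 samples of the contrast only, 59 with all 48 samples, and 26 to 322 with a heifer left out. The time difference went from 1267 to 828 at an FDR of 0.05, 1959 with DESeq2, 2249 with the heifer as replicate block, and 741 to 1776 with a heifer left out. The 1 gene of the protein difference became 0 with the quasi-likelihood F test and with at least 10 counts in every sample, 2 with DESeq2, 4 with no filter, and 0 to 4 with a heifer left out. Within LCM heifers 151 became 8 with the quasi-likelihood F test, 291 with DESeq2 and 51 to 178 with a heifer left out. Within HMY heifers 2 became 0 with the quasi-likelihood F test and 0 to 18 with a heifer left out. The difference between genetic groups, 0, became 2 with DESeq2, 1 with library size and 0 to 19 with a heifer left out. The cause of these shifts was not tested.

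Of 42 DEG named and refitted, none changed sign, all 42 missed the threshold with the quasi-likelihood F test, and 12 passed under each other alternative run for single genes, among them MVD, SLC25A1, ACLY, BDH1, CKB and KLF11. Signs changed only in genes that were not called. With a heifer left out, the log2 fold change ran from -0.056 to 0.28 for XYLT1, -0.11 to 0.15 for LEP, -0.045 to 0.11 for ATP5S, -0.026 to 0.087 for CAT, -0.063 to 0.15 for KYNU, -0.11 to 0.60 for PRLR, -0.0082 to 0.58 for ADAMTS5 and -0.38 to 1.59 for CXCL10. PRLR had -0.15 with the 12 samples only. Of the list medians, those of matrix (-0.074 to 0.12), inflammation (-0.0065 to 0.64) and clock genes (-0.13 to 0.035) changed sign under at least 1 alternative. So did that of immediate early response genes (-0.35 to 0.13), of which 1 was tested. No replicate block applies within gestation, where each heifer gave 1 sample. Low-level genes such as PLIN5 and CYP17A1 rest on few reads in LPHE heifers, and calls near the threshold, FASN and ACACA included, depended on the test and on single heifers.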
